A study of Mus musculus with 721 samples.

Results

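*Gata4*, *Gata6*, *Sox7*, *Sox17*, *Foxa2*, *Hnf4a*, *Foxq1* and *Foxa1* encode transcription factors of the endoderm, and their 8 rows were taken by gene symbol from the 24483 rows of a single-cell RNA-seq count table of early mouse embryos. The cells were wild-type C57Bl/6Babr cells of 4 stages, from E3.5 to E6.5 in steps of a day, with 82 of the E6.5 cells titled E6.75, and no group carried a treatment or an altered allele. Inner cell masses were freed of trophectoderm by immunosurgery at E3.5 and E4.5, visceral endoderm was peeled from the epiblast at E5.5, and the embryonic portion of early-streak embryos was used at E6.5. The polyadenylated RNA of 721 wells was amplified by the G&T-seq form of SMARTseq2. By the well labels, E3.5 was represented by 10 embryos (99 wells), E4.5 by 5, E5.5 by 9 and E6.5 by 13. These 37 labelled embryos are more than the paper states, so some may not be separate embryos. Of all wells, 588 were labelled as single cells, 5 as VE and the rest as double wells, and 9 E3.5 cells with no embryo number were treated as 1 embryo. Total counts per well ran from 66896 to 3792936 with a median of 692863. E3.5 and E4.5 cells shared no plate, so the stage and the plate cannot be told apart.

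Before implantation the inner cell mass resolves into the epiblast and the primitive endoderm (PrE), and the PrE then gives rise to the visceral endoderm (VE) that covers the epiblast. GATA factors bind AGATAA-type sites and sit at the head of the PrE programme, SOX7 and SOX17 are related HMG-box factors that act with them, FOXA1 and FOXA2 are forkhead factors that can open chromatin in endoderm and liver, FOXQ1 is a further forkhead factor, and HNF4A is a nuclear receptor needed for the secretory functions of the VE. Cells were placed in classes by clustering on genes that left out these 8 factors, 26 further endoderm regulators and 13 endoderm products, and the clusters were named from marker genes that also left them out. At E4.5, 76 wells were PrE-like and 29 epiblast-like. At E5.5, 6 wells were endoderm-like, 13 stayed unnamed and the rest were epiblast-like. At E6.5, 42 wells were endoderm-like, 23 wells of 1 embryo were primitive streak-like and the rest were epiblast-like. The mean log2(CPM + 1) of the endoderm markers, where CPM is the count scaled to the sequencing depth of its library, had a median over embryos of 5.78 in PrE-like cells, 2.26 in E4.5 epiblast-like cells, 6.76 in E6.5 endoderm-like cells and 3.19 in E6.5 epiblast-like cells. Trophoblast markers stayed low, with class medians from 0.76 to 1.46. In 3 PrE-like and 23 E6.5 epiblast-like wells the marker means went against the class, and counts were also computed without these wells, an alternative chosen after seeing the data. That check compared the endoderm and epiblast means and did not cover E3.5 or primitive streak-like wells.

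RefSeq promoter windows of GRCm38.p6, running from 250 bases before to 50 bases after a start site, covered 3 of the 8 genes with 6 windows. One window each of *Foxa2*, *Hnf4a* and *Foxa1* is shown because it held a match, in capitals, to a binding motif of a family to which members belong. The GATA motif was searched as AGATAA or TGATAA, the forkhead motif as TGTTTAC or TGTTTGC and the SOX motif as ACAATGG or ACAAAGG, all on both strands. The *Foxa2* window at chr2:148045415-148045714 and the *Hnf4a* window at chr2:163506607-163506906 each held AGATAA upstream of the start site, and the *Foxa1* window at chr12:57546062-57546361 held the reverse complement of TGTTTAC upstream of it. The start sites of all 3 printed windows lie inside the genes as annotated here.
*Foxa2*, minus strand: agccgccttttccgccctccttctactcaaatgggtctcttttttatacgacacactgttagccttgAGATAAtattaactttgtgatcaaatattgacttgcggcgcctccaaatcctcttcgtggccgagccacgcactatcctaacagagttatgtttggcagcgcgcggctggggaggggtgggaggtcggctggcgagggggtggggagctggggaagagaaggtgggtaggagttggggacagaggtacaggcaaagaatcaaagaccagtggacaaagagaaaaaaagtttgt
*Hnf4a*, plus strand: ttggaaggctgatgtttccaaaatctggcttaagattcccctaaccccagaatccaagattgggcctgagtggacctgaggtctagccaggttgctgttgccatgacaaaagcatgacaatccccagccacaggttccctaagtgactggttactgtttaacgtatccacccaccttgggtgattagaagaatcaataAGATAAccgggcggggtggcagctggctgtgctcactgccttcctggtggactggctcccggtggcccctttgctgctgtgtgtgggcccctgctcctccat
*Foxa1*, minus strand: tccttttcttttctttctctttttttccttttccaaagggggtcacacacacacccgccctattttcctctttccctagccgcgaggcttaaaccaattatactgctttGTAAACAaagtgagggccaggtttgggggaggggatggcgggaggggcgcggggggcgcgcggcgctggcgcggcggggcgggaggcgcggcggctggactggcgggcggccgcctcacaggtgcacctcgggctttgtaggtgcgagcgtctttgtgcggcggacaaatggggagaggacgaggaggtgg
The other 3 windows, of *Foxa2* and *Hnf4a*, held no match, among them that of the outermost *Foxa2* start at chr2:148046920-148047219, and no window of these genes held the SOX motif. Among the 31396 windows of that length on autosomes, 18.6% held the GATA motif, 8.55% the forkhead motif and 9.18% the SOX motif. A match is a description of letters and does not show binding.

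On GRCm38, *Gata4* is at chr14:63198922-63271692 on the minus strand and *Sox7* at chr14:63943673-63950732 on the plus strand of the same chromosome. *Gata6* is at chr18:11052064-11085635 on the plus strand and *Sox17* at chr1:4490931-4497354 on the minus strand. *Foxa2* at chr2:148042877-148046969, minus strand, and *Hnf4a* at chr2:163506808-163572910, plus strand, share a chromosome. *Foxq1* is at chr13:31556134-31560976, plus strand, and *Foxa1* at chr12:57540628-57546916, minus strand. The counted *Foxq1* row starts at 31558170, inside the gene as annotated here. Its levels per kilobase use the annotated exon length and would be higher if the counted gene is shorter. As annotated, *Foxq1* shares 3200 exon bases with A530084C06Rik on the opposite strand, and that gene's own counts ran from 52.7 to 129.9 CPM in the PrE-like sums. Because strand was not used in the counting, reads of the pair cannot be told apart.

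*Gata6* was the factor already present across the inner cell mass at E3.5. Counts were summed per embryo within a class wherever at least 3 wells were available, which gave 10 sums at E3.5. CPM of the sums used library depths scaled by TMM normalization, whereas CPM of wells used plain total counts. *Gata6*, the zinc-finger factor that starts the PrE programme, had 95.9 CPM in the lowest sum, 224.2 in the median and 397 in the highest. *Sox17* ran from 0 through a median of 26.2 to 116.4 CPM, and *Gata4*, the close relative of *Gata6*, from 0 through 14.3 to 66.7 CPM. *Sox17* was at 0 in 2 sums and *Gata4* in 3, whereas *Gata6* was counted in all 10. *Hnf4a* had a median of 3.21 CPM and a highest sum of 20.8 CPM. *Foxq1* reached 3.81 CPM and *Foxa1* 1.19 CPM, each with 6 sums at 0. *Sox7* was at 0 in 9 sums and at 0.933 CPM in the remaining sum, and *Foxa2* was at 0 in all 10. Per kilobase of exon, the median level at E3.5 was 34.4 CPM for *Gata6*, 5.48 for *Sox17*, 3.66 for *Gata4* and 0.664 for *Hnf4a*, and the *Gata4* and *Sox17* ranges overlapped. In sums of this kind, fewer expressing cells and less RNA per cell cannot be told apart.

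**Figure D1:**
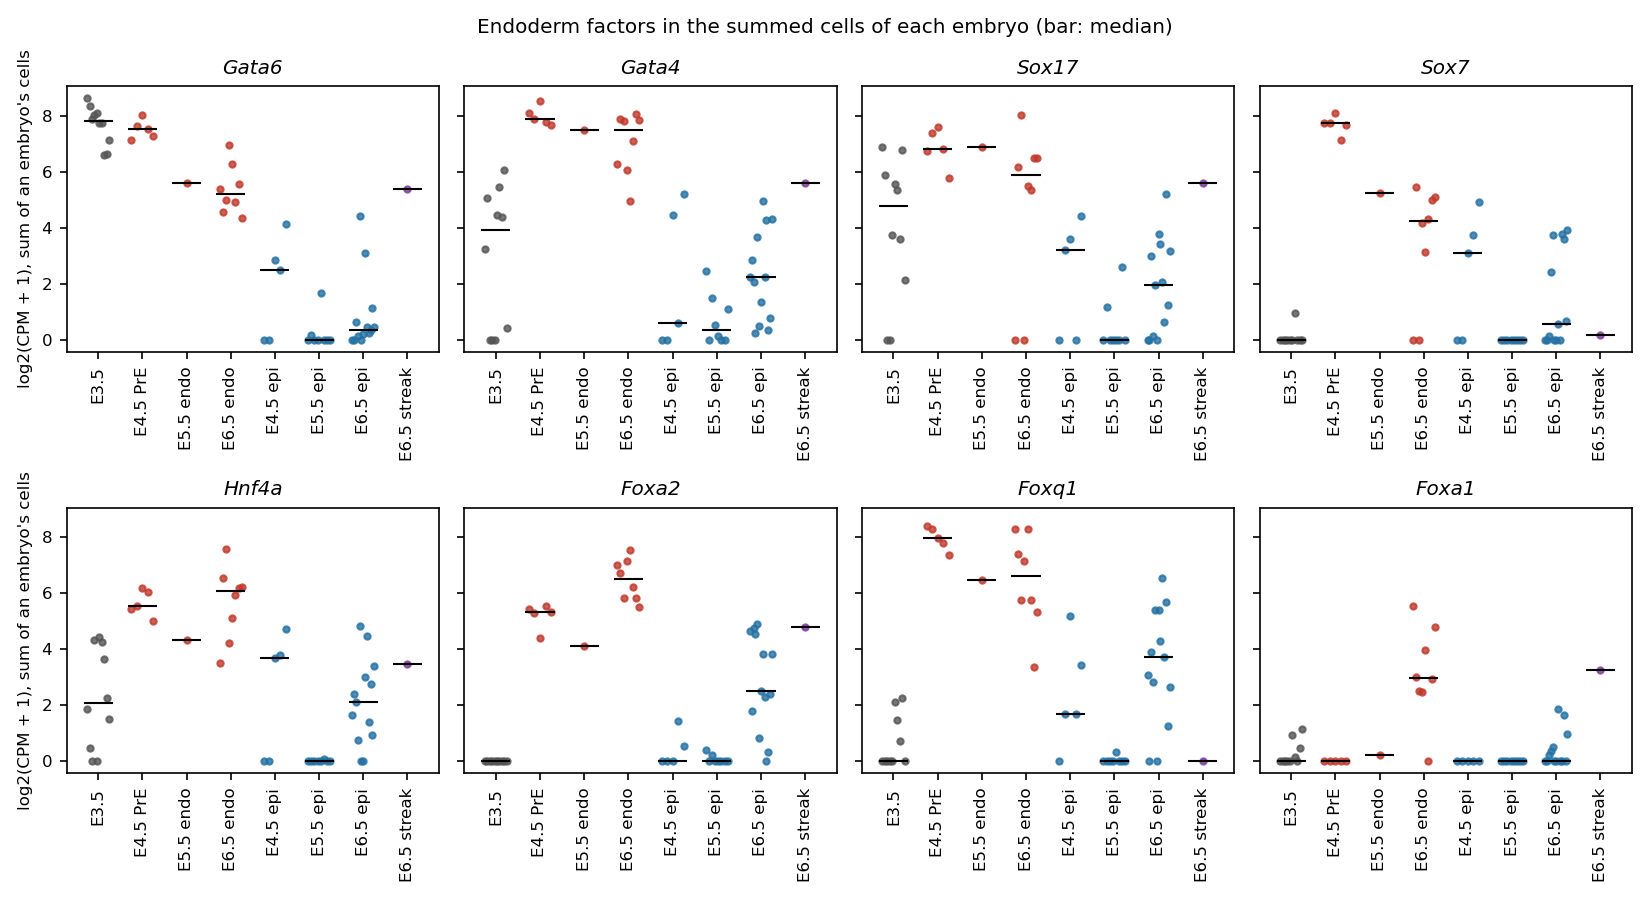
Level of each of the 8 factors in each embryo's sum, as log2(CPM + 1) on the vertical axis, by class on the horizontal axis. Each point is 1 embryo and each bar is the class median. *Gata6* is high from E3.5 (95.9 to 397 CPM), *Sox7*, *Foxa2* and *Foxq1* first stand high in the PrE-like sums, and *Foxa1* is at 0 in all 5 PrE-like sums and reaches 46.3 CPM at E6.5.

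Among the 90 E3.5 wells labelled single, *Gata6* reached 10 CPM, the level taken as detection, in 79 cells. *Sox17* was detected in 23 cells, *Hnf4a* in 20, *Gata4* in 18, *Foxq1* in 5, *Foxa1* in 2 and *Sox7* in 1. *Foxa2* was detected in 0 of 90 cells, which allows a share of up to 4.02% (exact binomial limit, counting error only). Every *Gata4* cell (18 of 18) and every *Sox17* cell (23 of 23) also had *Gata6*. The pluripotency gene *Nanog* was detected in 80 cells. *Gata6* and *Nanog* were together in 69 cells, *Gata6* stood without *Nanog* in 10 and *Nanog* without *Gata6* in 11.

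*Gata4* and *Sox17* overlapped in part at E3.5. They were detected together in 14 cells, which is 77.8% of the *Gata4* cells and 60.9% of the *Sox17* cells, 4 cells had *Gata4* without *Sox17* and 9 had *Sox17* without *Gata4*, whereas *Sox17* was detected in 12.5% of the cells without *Gata4*. Spearman's rho between their levels was 0.67 over the 90 cells, which share embryos and plates and differ in depth. *Hnf4a* did not follow the pair, since its rho with *Gata4* was 0.09 and 13 cells had *Gata6* and *Hnf4a* with neither *Gata4* nor *Sox17*. Of these 4 genes, 39 cells had *Gata6* alone, 8 had *Gata6* with *Sox17*, 4 had *Gata6* with *Gata4*, 9 had *Gata6*, *Gata4* and *Sox17*, and 5 had all 4. Of the 5 *Foxq1* cells, 4 had *Gata4* and 4 had *Sox17*.

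*Nanog* was less frequent where *Gata4* was present. It was detected in 12 of the 18 *Gata4* cells (66.7%) and in 94.4% of the cells without *Gata4*, in 15 of the 23 *Sox17* cells and in 1 of the 5 *Foxq1* cells. The rho with *Nanog* was −0.45 for *Gata4*, −0.49 for *Sox17* and −0.38 for *Gata6*. The marker mean of the endoderm list minus that of the epiblast list was −2.02 in *Gata4* cells and −3.23 in the other cells. Neither list held the factors, but the epiblast list held *Nanog*, so this difference is not independent of it. The median total count was 469060 in *Gata4* cells and 589118 in the others. By plate, with double wells included, *Gata4* was detected in 17 of 74 wells on P9, 2 of 16 on P8 and 0 of 9 on P11.P6.P10, and *Sox17* in 22, 4 and 1 wells. The part of depth and plate in these counts was not tested.

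At E4.5, 7 of the 8 factors were present in the PrE-like sum of every embryo. *Gata4* had 273.5, 236.2, 367.1, 217.5 and 205.8 CPM in embryos 1 to 5, and *Gata6* had 138.54, 196.82, 261.85, 185.97 and 152.76 CPM. The highest *Gata4* sum at E3.5 was lower than the lowest of these, while the *Gata6* sums lay within the E3.5 range. *Sox7* had 215.34, 215.56, 276.64, 138.95 and 201.24 CPM and *Sox17* 107.3, 166.5, 191.9, 112.9 and 53.9 CPM. Every *Sox7* sum lay above every E3.5 sum, and the *Sox17* sums overlapped the upper E3.5 sums. *Foxa2* had 42.7, 38.3, 20.2, 45.7 and 39.4 CPM. *Hnf4a* had 42.4, 45.9, 72.4, 65.3 and 30.9 CPM and *Foxq1* had 337.1, 318.3, 253.8, 223.9 and 163.3 CPM. All 3 stood above their highest E3.5 sum in every embryo, and *Foxa1* was at 0 in all 5. Per kilobase the median levels were 65.3 CPM for *Sox7*, 60.5 for *Gata4*, 52.4 for *Foxq1*, 28.6 for *Gata6*, 23.7 for *Sox17*, 16.6 for *Foxa2* and 9.5 for *Hnf4a*, with overlapping ranges between each pair of neighbours in that order. The annotated *Foxq1* gene starts before the counted row, so the place of *Foxq1* in the order is not settled.

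Against E3.5, 5 of the 8 factors were higher in PrE-like sums, where 13.2% of the 17151 genes tested were called higher and 5.24% lower. A call was an edgeR quasi-likelihood adjusted p at or below 0.05 with an absolute log2 fold change over 1. *Sox7* rose by 10.62 on the log2 scale (SE 1.53, adjusted p = 8.48e-07) and *Foxq1* by 7.84 (SE 1.09, adjusted p = 2.01e-07). *Foxa2*, at 0 in all E3.5 sums, had a mean at least 775-fold higher when 3 counts over the E3.5 group are taken as the floor (adjusted p = 1.73e-08). *Gata4* rose by 3.75 (SE 1.08, adjusted p = 0.0104) and *Hnf4a* by 2.70 (SE 0.97, adjusted p = 0.0419). The same 5 factors had sums that did not overlap between the groups, against 5.4% of all genes (2.12% were lower with no overlap). *Sox17* differed by 1.67 (SE 1.23, adjusted p = 0.381), *Gata6* by −0.27 (SE 0.97, adjusted p = 0.959) and *Foxa1* did not pass (adjusted p = 0.0537). The *Hnf4a* call was kept in 5 of 14 alternatives, and without E4.5 embryo 2, 3, 4 or 5 its adjusted p was 0.0631, 0.104, 0.0795 and 0.0509. With single wells only, *Gata4* differed by 3.32 (adjusted p = 0.0549) and with at least 5 wells per sum by 2.99 (adjusted p = 0.107).

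The factors were found together within PrE-like cells. Among the 46 single wells, all 7 factors other than *Foxa1* reached 10 CPM in 19 cells and at least 6 did in 34 (73.9%). The mean number of factors per cell was 6.13 ± 0.233 (SD, n = 5 embryos), compared with 1.59 ± 0.591 (SD, n = 10) at E3.5 and 1.05 ± 1.08 (SD, n = 5) in E4.5 epiblast-like cells. Averaged over embryos, *Gata6* was detected in 100% of PrE-like cells, *Gata4* in 98.8%, *Sox7* in 97.6%, *Foxq1* in 96%, *Sox17* in 79.1%, *Hnf4a* in 71.6% and *Foxa2* in 69.9%. After the complete set, the most frequent combinations lacked *Foxa2* (7 cells) or *Hnf4a* (5 cells). *Foxa1* was detected in 0 of 46 cells, which allows a share of up to 7.71%. Within the class, levels of the factors were only weakly related, with Spearman's rho between pairs from −0.22 to 0.29 over the 46 cells. When every cell was thinned to 300000 counts, the mean number of factors with a count was 6.28 in PrE-like cells and 1.61 at E3.5, with 35 of 593 cells too shallow to enter.

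**Figure D2:**
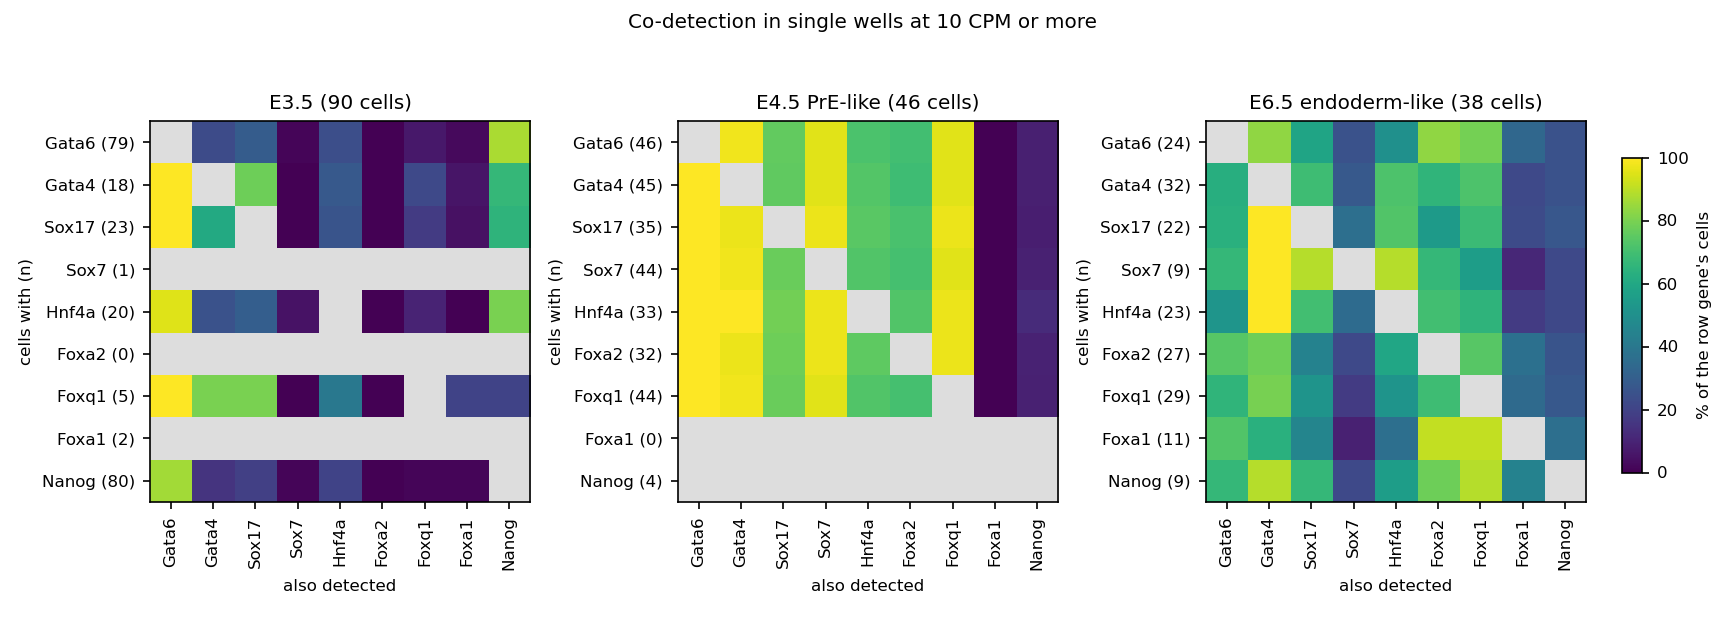
Co-detection of the 8 factors at E3.5 (90 cells), in E4.5 PrE-like cells (46 cells) and in E6.5 endoderm-like cells (38 cells), single wells. Each square gives the percent of the row gene's cells that also had the column gene at 10 CPM or more, and grey marks the diagonal and genes detected in fewer than 5 cells. At E3.5 the *Gata6* column is full for *Gata4* and *Sox17* (18 of 18 and 23 of 23 cells), while the PrE-like panel is filled for 7 factors.

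*Gata6* was lower in the sister lineage. In E4.5 epiblast-like sums of embryos 1 to 5, *Gata6* had 0, 0, 6.15, 4.63 and 16.6 CPM, and every sum was below the lowest E3.5 sum. It fell by 5.31 on the log2 scale against the same E3.5 sums (SE 1.29, adjusted p = 0.0022), and was the 1 factor called lower, where 5.96% of all genes were called lower and 2.06% were lower with no overlap. *Sox7* had 0, 0, 7.55, 12.5 and 29.2 CPM and *Foxq1* 0, 2.2, 35.8, 2.23 and 9.8 CPM. *Sox7* was called higher than at E3.5 (log2 fold change 6.23, SE 1.36, adjusted p = 0.000789) and so were *Foxq1* (3.16, SE 0.96, adjusted p = 0.014) and *Foxa2* (mean at least 9.07-fold higher, adjusted p = 0.00595), where 13% of all genes were called higher. All 3 ranges overlapped those of E3.5, and *Foxa2* was at 0 in 3 of its 5 sums with a highest sum of 1.71 CPM. The filter on low counts ran over all 8 classes. With only the compared groups in the fit, none of the 3 passed it, and *Gata6* was the 1 factor called. The *Foxq1* call was kept in 10 of the 13 alternatives that tested it. It was lost with single wells only, with at least 5 wells per sum and without embryo 3, where the difference was 1.64 (adjusted p = 0.301). Without embryo 4 the difference of *Foxa2* was 3.90 (adjusted p = 0.0958). In the same sums *Gata4* had 0, 0, 20.98, 0.514 and 36.1 CPM, *Sox17* 0, 8.25, 11.2, 0 and 20.4 CPM and *Hnf4a* 0, 0, 11.7, 12.9 and 25.5 CPM. Embryos 1 and 2 carried at most 8.25 CPM of any factor, and embryo 5 carried the most of *Gata4*, *Gata6*, *Sox7*, *Sox17* and *Hnf4a*. Embryos 1 and 2 were on plate P1, with 2543538 and 1666375 total counts in their sums. Embryos 3 to 5 were on plate P2, with 3428883 to 6468888 total counts. Among the 21 single epiblast-like cells, 14 had none of the 8 factors and 1 had 6 of them. The endoderm marker mean of these 5 embryos ran from 1.78 to 3.42. The parts of this mean, of the plate and of depth in these levels were not tested.

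Between the lineages at E4.5, 7 factors stood higher in every PrE-like sum than in any epiblast-like sum, against 6.8% of all genes, and 3.94% were lower with no overlap. With an absolute log2 fold change over 2 required, as the study did for this comparison, 3 factors were called higher, where 4.44% of all genes were called in either direction and 2.23% higher. *Foxa2* differed by 6.17 on the log2 scale (SE 1.35, adjusted p = 0.0035), *Gata6* by 5.03 (SE 1.32, adjusted p = 0.0146) and *Foxq1* by 4.68 (SE 1.28, adjusted p = 0.0198). *Gata4* differed by 4.47 (adjusted p = 0.0557), *Sox7* by 4.39 (SE 1.55, adjusted p = 0.0776), *Sox17* by 3.98 (SE 1.68, adjusted p = 0.139) and *Hnf4a* by 2.34 (SE 1.22, adjusted p = 0.245). Both classes came from the same embryos, and with the embryo as a replicate block 6 factors were called, where 10.17% of the genes in that fit were called in either direction, among them *Gata4* (5.95, adjusted p = 0.00692), *Sox7* (5.07, adjusted p = 0.00691) and *Sox17* (4.89, adjusted p = 0.0188), while *Hnf4a* was not (3.35, adjusted p = 0.0824). Leaving out any 1 embryo left 1 or 2 calls, since *Gata6* had adjusted p of 0.0562, 0.061, 0.06 and 0.059 without embryo 1, 2, 3 or 4, and *Foxq1* had 0.083, 0.0905, 0.0799 and 0.0556 without embryo 1, 2, 4 or 5. With an embryo left out, 2.02% to 2.52% of genes were called in either direction. Within plate P1 or plate P2 alone, 0 of the 8 factors were called, where 0.342% and 0.824% of genes were called. Without the 3 PrE-like wells whose markers went against the class *Gata4* passed as well (4.49, adjusted p = 0.0445).

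**Figure D3:**
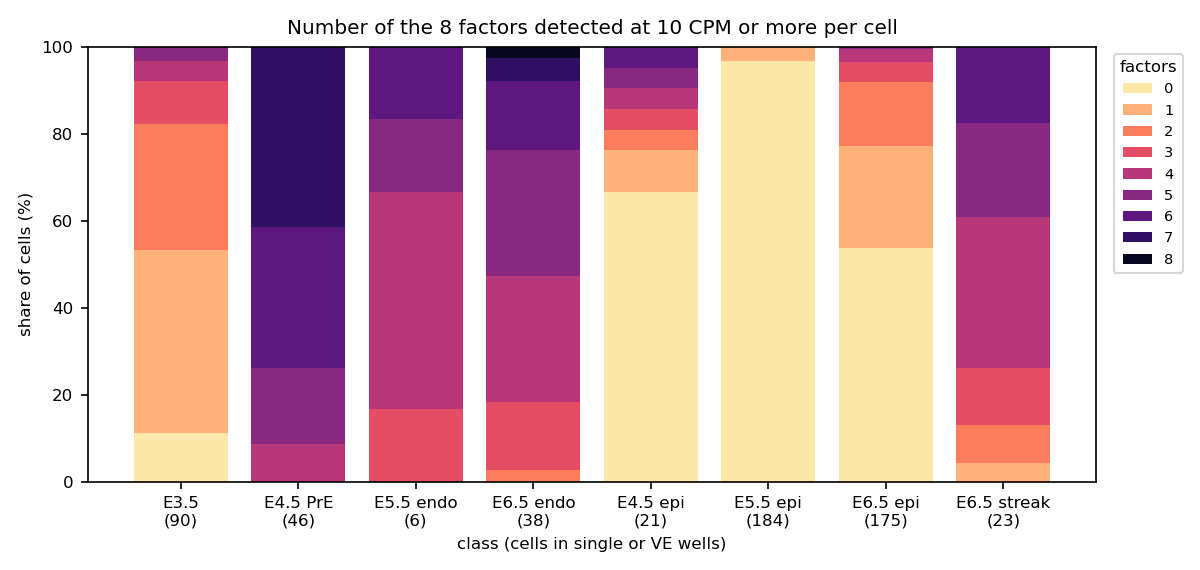
Share of single wells in each class, in percent on the vertical axis, by how many of the 8 factors reached 10 CPM in the cell. PrE-like cells mostly had 6 or 7 factors (34 of 46 cells), E5.5 epiblast-like cells mostly had none (96.7% of cells) and E6.5 endoderm-like cells had from 2 to 8.

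Endoderm at E5.5 was seen in 6 wells only, namely 5 wells labelled VE from 1 embryo and 1 single cell from another. In their order, the 5 VE wells had 89.4, 105.8, 472.3, 5.35 and 175.7 CPM of *Gata4* and 75.5, 21.7, 71.5, 30.8 and 40.3 CPM of *Gata6*. *Sox17* had 140.1, 287.7, 0, 0 and 159.7 CPM, while *Sox7* had 158.3 CPM in the second well and 0 in the other 4. *Foxa2* had 0, 8.54, 0, 34.1 and 36.1 CPM, *Hnf4a* 0, 0, 22, 55.5 and 7.56 CPM and *Foxq1* 174.9, 106.4, 0, 160.5 and 0 CPM. The GATA factors were thus counted in all 5 wells, and each SOX, forkhead and HNF factor in some of them. The single cell of the other embryo had 291.8 CPM of *Gata4*, 76.4 of *Foxa2*, 31.8 of *Hnf4a*, 66.1 of *Foxq1* and 29.2 of *Foxa1*, with *Sox7* and *Sox17* at 0. It was the only one of the 6 wells in which *Foxa1* reached 10 CPM. With 1 sum, no test was made. E5.5 epiblast-like cells were nearly empty of the factors, since 96.7% of single cells had none and the highest sum of any factor was 5.1 CPM.

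At E6.5 the endoderm-like cells carried all 8 factors, *Foxa1* included. Over 8 sums, *Gata4* ran from 30.2 through a median of 180.1 to 270.7 CPM and *Gata6* from 19.3 through 35.9 to 121.95 CPM. *Sox7* had a median of 17.9 and a highest sum of 43.03 CPM, and *Sox17* a median of 57.4 and a highest sum of 261.2 CPM, each with 2 sums at 0. All 8 sums of *Gata6* and *Sox7* lay below every PrE-like sum, against 4.09% of all genes lower with no overlap. *Foxa2* ran from 44.8 through 89.4 to 185.5 CPM, *Hnf4a* from 10.5 through 66.5 to 190.7 CPM and *Foxq1* from 9.28 through 97.8 to 318.1 CPM. *Foxa1* was at 0 in 1 sum and had a median of 6.81 and a highest sum of 46.3 CPM. Per kilobase, *Gata4* (median 46.1 CPM) and *Foxa2* (37.7 CPM) headed the order, followed by *Foxq1* at 20.2, *Hnf4a* at 13.8, *Sox17* at 12, *Gata6* at 5.51, *Sox7* at 5.42 and *Foxa1* at 2.05, and the ranges of all neighbours overlapped. Here too the place of *Foxq1* depends on the exon length taken.

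Against PrE-like sums, *Foxa1* was the 1 factor called higher, where 4.22% of all genes were called higher and 7.23% lower. Its mean over the sums was at least 297-fold higher, with 3 counts over the PrE-like group as the floor (adjusted p = 0.00352). With 1 E6.5 sum at 0 the ranges overlapped. The call was kept in 17 of 17 alternatives. *Sox7* differed by −3.47 on the log2 scale (SE 1.24, adjusted p = 0.0549), *Gata6* by −1.95 (SE 0.98, adjusted p = 0.183) and *Foxa2* by 1.40 (SE 1.0, adjusted p = 0.391). The other 4 lay between −0.91 for *Foxq1* and 0.42 for *Hnf4a*. With only these groups in the fit, *Sox7* (−3.46, adjusted p = 0.0144), *Gata6* (−1.93, adjusted p = 0.00703) and *Foxa2* (1.43, adjusted p = 0.0397) also passed. In that fit 8.22% of genes were called in either direction.

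**Figure D4:**
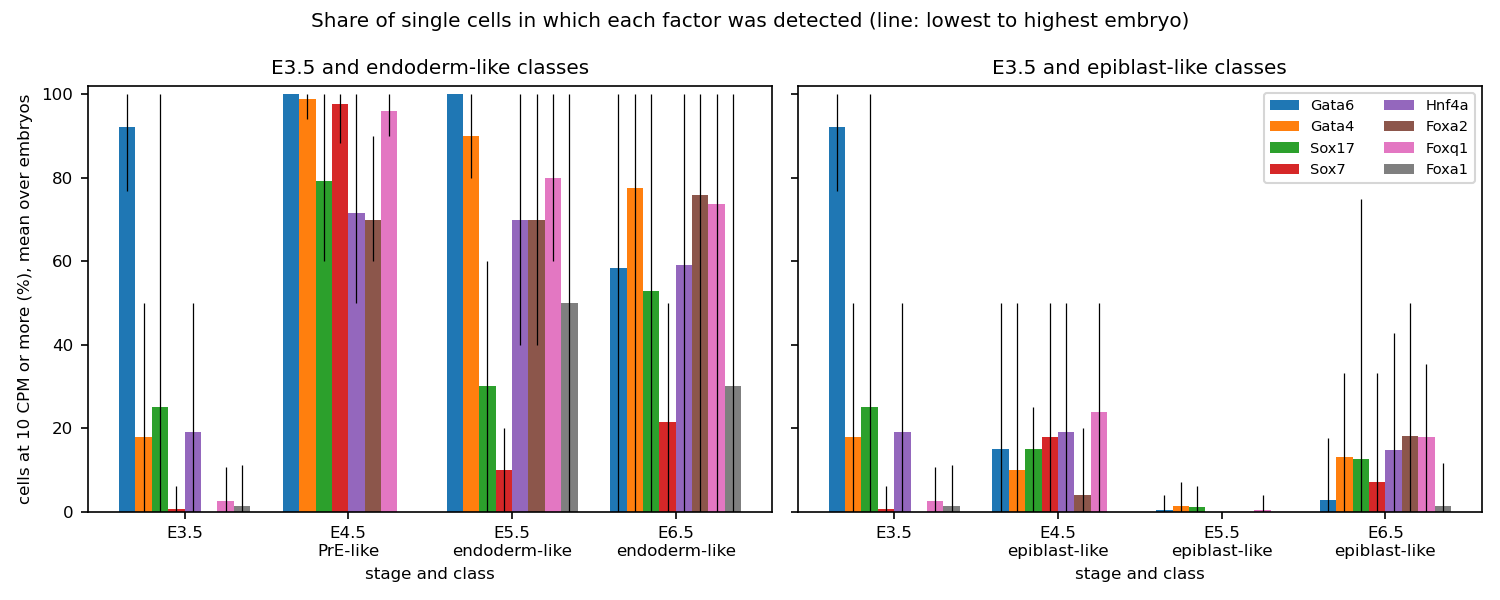
Percent of single cells with 10 CPM or more of each factor, as the mean over embryos, with a line from the lowest to the highest embryo. The left panel follows E3.5 into the endoderm-like classes and the right panel follows E3.5 into the epiblast-like classes. *Gata6* starts at 92.2% at E3.5, 6 more factors pass 50% in the PrE-like class, and *Foxa1* is at 0% there and at 30.1% at E6.5.

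Within E6.5, 7 of the 8 factors were higher in endoderm-like than in epiblast-like sums, where 6.87% of all genes were called higher and 9.74% lower. Over the 13 epiblast-like sums the medians were 3.72 CPM for *Gata4*, 0.262 for *Gata6*, 0.459 for *Sox7*, 2.88 for *Sox17*, 4.66 for *Foxa2*, 3.36 for *Hnf4a*, 12.2 for *Foxq1* and 0 for *Foxa1*. *Gata4* and *Foxa2* did not overlap between the classes, against 0.496% of all genes. The log2 difference was 4.37 for *Gata4* (SE 0.94, adjusted p = 0.00122) and 4.23 for *Gata6* (SE 0.83, adjusted p = 0.000416). It was 3.55 for *Sox17* (SE 1.07, adjusted p = 0.0174) and 2.10 for *Sox7* (SE 0.95, adjusted p = 0.105). Among the forkhead genes it was 3.14 for *Foxa2* (SE 0.75, adjusted p = 0.00402), 4.68 for *Foxa1* (SE 1.21, adjusted p = 0.00758) and 2.62 for *Foxq1* (SE 0.77, adjusted p = 0.0149), and for *Hnf4a* it was 3.40 (SE 0.84, adjusted p = 0.00445). With the embryo as a replicate block 6 were called, where 7.13% of the genes in that fit were called in either direction. *Sox17* was not called there (4.49, adjusted p = 0.113). Only *Gata6* was called among the embryos with no plate name, where 1.70% of genes were called in either direction. On plates P1 to P3, 6 factors and 8.68% of genes were called. Without the wells whose markers went against their class, 7 factors and 17.4% of genes were called. The difference between the lineages did not itself differ between E6.5 and E4.5 at an adjusted p of 0.05 in edgeR for any of the 7 factors with counts at E4.5, where 502 of 17151 genes passed, and *Foxa1*, at 0 in both E4.5 classes, could not be tested. At an unadjusted p of 0.05, *Foxa2* alone of the 7 passed (−3.03, SE 1.4, p = 0.0355, adjusted p = 0.233 in edgeR).

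Single E6.5 endoderm-like cells had from 2 to 8 of the factors, where PrE-like cells had from 4 to 7. The 38 single cells had 4.49 ± 0.877 factors each (SD, n = 12 embryos), at least 6 in 9 cells (23.7%) and all 8 in 1 cell. Averaged over embryos, *Gata4* was detected in 77.5% ± 37.8, *Foxa2* in 75.8% ± 31.4, *Foxq1* in 73.8% ± 35.6, *Hnf4a* in 59.2% ± 35.6, *Gata6* in 58.5% ± 32.4, *Sox17* in 52.9% ± 43.9, *Foxa1* in 30.1% ± 33.1 and *Sox7* in 21.5% ± 21.5 (SD, n = 12). With 38 cells over 12 embryos, some shares rest on few cells, so these SDs also hold counting error. The class joins the clusters described below. *Gata4* was present in every *Sox17* cell (22 of 22), every *Sox7* cell (9 of 9) and every *Hnf4a* cell (23 of 23). Of the 11 *Foxa1* cells, 10 had *Foxa2*, 10 had *Foxq1*, 7 had *Gata4* and 4 had *Hnf4a*. Over all 38 cells, 27 had *Foxa2*, 29 *Foxq1*, 32 *Gata4* and 23 *Hnf4a*. Spearman's rho over the 38 cells was 0.43 for *Gata4* with *Hnf4a*, 0.41 for *Sox7* with *Sox17* and 0.4 for *Foxq1* with *Foxa1*, and it was −0.5 for *Gata4* with *Foxq1* and −0.44 for *Gata6* with *Hnf4a*. With cells thinned to 300000 counts the mean number of factors with a count was 5.19. In E6.5 epiblast-like cells it was 0.875 ± 0.443 (SD, n = 13) at 10 CPM, 0.599 without the wells whose markers went against the class, and 1.4 after thinning.

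The anterior visceral endoderm (AVE) is the part of the VE that secretes WNT and NODAL antagonists. Clustering divided the E6.5 endoderm-like wells into 21 with high and 21 with low AVE markers, from 7 embryos each. *Foxq1* was detected in 20 of the AVE-high and 12 of the AVE-low wells, *Foxa1* in 10 and 4, and *Foxa2* in 17 and 14. *Gata4* was detected in 15 and 20, *Sox17* in 8 and 17, *Hnf4a* in 10 and 16, *Sox7* in 3 and 9 and *Gata6* in 15 and 13. *Foxq1* and *Foxa1* were thus detected in more of the AVE-high wells, and *Gata4*, *Hnf4a* and both SOX genes in more of the AVE-low wells. *Foxa2* was detected in 12 of the 14 AVE-low wells with no plate name and in 2 of the other 7. Median embryo levels were 269.0 CPM against 41.2 for *Foxq1*, 133.3 against 56.4 for *Foxa2*, 21.1 against 0 for *Foxa1*, 67.2 against 148.2 for *Gata4*, 18.3 against 79.5 for *Hnf4a* and 0 against 72.4 for *Sox17*. The means over embryos did not follow the medians for *Sox17* (91.7 CPM in AVE-high against 62.4 in AVE-low wells) and were close for *Hnf4a* (70.9 against 72.6). The AVE-high wells were all on plates P1 to P3, where 7 of the AVE-low wells also lay, and in those 7 wells from 3 embryos the median was 41.2 CPM for *Foxq1*, 2.77 for *Foxa2*, 115.3 for *Gata4*, 93.4 for *Hnf4a* and 34.96 for *Sox17*. These values describe clusters of cells and were given no test.

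**Figure D5:**
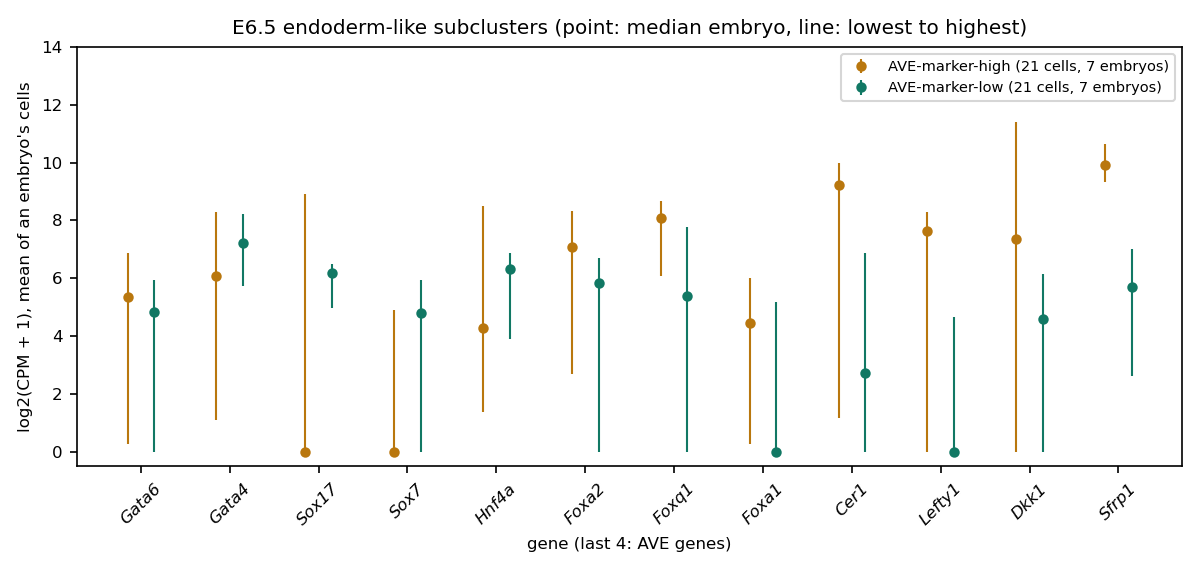
The 8 factors and the AVE genes *Cer1*, *Lefty1*, *Dkk1* and *Sfrp1* in AVE-high and AVE-low E6.5 endoderm-like wells, as log2(CPM + 1). Points are medians over 7 embryos and lines run from the lowest to the highest embryo. Among the factors, *Sox17* (0 against 72.4 CPM) and *Sox7* (0 against 26.6 CPM) have the widest gaps between medians, and the ranges overlap for all 8 factors.

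Part of the set was also counted in the primitive streak-like cells, the cells that leave the epiblast at gastrulation as mesoderm and definitive endoderm. All 23 cells came from 1 embryo, so these are values with no replicate. The sum had 47.3 CPM of *Gata4*, 41.2 of *Gata6*, 47.7 of *Sox17*, 26.9 of *Foxa2*, 9.98 of *Hnf4a* and 8.46 of *Foxa1*. *Sox7* had 0.132 CPM, which is 2 counts, and *Foxq1* had none. *Sox17* was detected in 22 of the 23 cells, *Gata4* in 21, *Gata6* and *Foxa2* in 17 each, *Hnf4a* and *Foxa1* in 9 each, and all 9 *Foxa1* cells had *Foxa2*. *Sox7* and *Foxq1* were detected in 0 of 23 cells, which allows a share of up to 14.8%. *Nanog* was detected in 21 of these cells. The endoderm marker mean was 5.08 and the epiblast marker mean 4.73 in this embryo. In 16 of the 23 cells the endoderm mean was above the epiblast mean. Of the endoderm products, *Ttr* had 601.9 CPM in this sum, *Apoa1* 447.9, *Apob* 161.8 and *Afp* 76.2. Their medians in E6.5 epiblast-like sums were 432, 464.6, 139.3 and 83.9 CPM, and in E5.5 epiblast-like sums 0.7, 2.59, 0.132 and 0.212 CPM. The part of endoderm RNA in the factor levels of primitive streak-like and E6.5 epiblast-like cells was not tested.

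Read across stages, the share of cells with a factor gave an order of onset. *Gata6* had passed 50% of cells at E3.5 (92.2%), and *Gata4*, *Sox7*, *Sox17*, *Foxa2*, *Hnf4a* and *Foxq1* passed it in the PrE-like class. Of these 6, *Sox17* at 25.2%, *Hnf4a* at 19% and *Gata4* at 17.9% were already detected in part of the E3.5 cells, and *Foxq1* at 2.47%, *Sox7* at 0.63% and *Foxa2* at 0% were at or near 0. *Foxa1* touched 50% in E5.5 endoderm-like cells, which rests on 1 of 6 wells, and was at 30.1% at E6.5. At a limit of 25%, *Sox17* moved to E3.5. At 75%, *Foxa2* moved to E6.5, and *Hnf4a* and *Foxa1* passed in no class. In E5.5 epiblast-like cells no factor exceeded 1.41% and 96.7% of cells had none of the 8, whereas 53.7% of E6.5 epiblast-like cells had none.

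Other genes of the endoderm programme were followed with lists of 26 further regulators, 25 of which were tested, and 13 products such as serum carriers and basement membrane chains. Against E3.5, 10 regulators were higher and 3 lower in PrE-like sums (median log2 difference 2.07), and 9 products were higher and 1 lower (4.62), where the median of all genes was 0.09 and 13.2% of them were called higher and 5.24% lower. The forkhead gene *Foxa3* (adjusted p = 7.75e-07), the homeobox gene *Lhx1* (adjusted p = 5.18e-06) and the thyroxine carrier *Ttr* (adjusted p = 1.39e-08) were at 0 in all E3.5 sums and higher in PrE-like sums. *Apob*, the core protein of lipoproteins, differed by 7.04 (adjusted p = 0.000112), but 2 of its 5 PrE-like sums were at 0 and the median was 0.215 CPM, against 36.3 CPM in 1 embryo. The laminin chain *Lama1* rose by 6.24 (adjusted p = 8.64e-05). In epiblast-like sums against E3.5, 3 regulators were higher and 2 lower (median 0.0) and 3 products were higher (0.87), against a median of 0.0 for all genes, of which 13% were called higher and 5.96% lower. There the epiblast factor *Otx2* rose by 3.95 (adjusted p = 1.29e-05) and *Gsc* fell by 6.35 (adjusted p = 0.0116), and the iron carrier *Trf* (adjusted p = 4.77e-10), *Ttr* (adjusted p = 0.0024) and *Afp* (adjusted p = 0.00272), all at 0 at E3.5, were called higher. *Afp* was at 0 in 4 of the 5 epiblast-like sums and at 7.78 CPM in the other. Between the E4.5 lineages, 8 regulators were higher and 2 lower in PrE-like sums (1.44) and 8 products higher and 1 lower (4.35), against 0.01 for all genes, of which 2.23% were called higher and 2.21% lower. *Lhx1* (6.64, adjusted p = 0.00888), *Apob* (6.17, adjusted p = 0.0259, with the same embryo at 36.3 CPM) and the collagen chain *Col4a2* (5.94, adjusted p = 0.00114) were higher, *Foxa3* (adjusted p = 0.00131) and *Creb3l3* (adjusted p = 0.0469) were at 0 in all epiblast-like sums, and *Trf* was lower (−6.72, adjusted p = 7.06e-05).

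From PrE-like to E6.5 endoderm-like sums, 5 regulators were higher and 0 lower (1.44), and 7 products were higher and 4 lower (5.71), with a median of 0.0 over all genes, of which 4.22% were called higher and 7.23% lower. The 4 lower products were the basement membrane genes *Lama1*, *Lamb1*, *Lamc1* and *Col4a2*. The fetal serum protein *Afp* rose by 12.46 (adjusted p = 1.91e-07), *Apoa1* by 11.47 (adjusted p = 2.01e-07), *Nr2f2* by 8.94 (adjusted p = 0.0172), *Otx2* by 7.48 (adjusted p = 4.64e-07) and *Lhx1* by 6.22 (adjusted p = 0.000196), and the retinol carrier *Rbp4* was at 0 in all PrE-like sums (adjusted p = 5.7e-07). Within E6.5, 14 regulators (2.56) and 12 products (3.07) were higher in the endoderm-like sums and 0 lower, against −0.23 for all genes, of which 6.87% were called higher and 9.74% lower. The AVE homeobox genes *Hesx1* (5.36, adjusted p = 0.000256) and *Hhex* (4.87, adjusted p = 0.000186) were among them, as were *Apob* (4.95, adjusted p = 5.9e-06), *Afp* (4.22, adjusted p = 4.7e-05), *Rbp4* (3.53, adjusted p = 0.000733) and *Nr2f1*, at 0 in all epiblast-like sums (adjusted p = 0.0154). *Nr2f1* was at 0 in 7 of the 8 endoderm-like sums too and at 4.995 CPM in the other.

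The genes whose log2(CPM + 1) was most alike over the 51 sums were found by Pearson's r, as a description over sums that share embryos, stages and plates. *Gata4* was closest to the collagen gene *Col4a1* (r = 0.86), the protease *Ctsl* (0.85) and the endocytic receptor *Cubn* (0.83), and *Hnf4a* to *Cubn* (0.86), *Ctsl* (0.83) and *Dpp4* (0.82). *Gata6* was closest to *Timd2* (0.86), *Fam96a* (0.86) and *Snx2* (0.85). *Sox7* had A530084C06Rik (0.84) and *Nostrin* (0.83) among its closest genes, and *Sox17* was closest to *Fgf10* (0.72), *Rab11a* (0.72) and *Rdh10* (0.69). *Foxa2* was closest to *Slc39a8* (0.92), *Pla2g12b* (0.88) and *Cyp26a1* (0.87), *Foxq1* to *Srgn* (0.91), *Pga5* (0.9) and A530084C06Rik (0.88), and *Foxa1* to *Vil1* (0.78), *Mixl1* (0.75) and *Slc28a2* (0.75). *Ctsl*, *Cubn*, *Slc39a8*, *Pla2g12b*, *Cyp26a1*, *Dpp4*, *Srgn*, *Vil1* and *Mixl1* are among the markers that named the clusters, and A530084C06Rik overlaps *Foxq1*. Among the 8 factors, *Gata4* with *Hnf4a* (0.83) and *Foxa2* with *Foxq1* (0.78) were the most alike pairs and *Foxa1* with *Sox7* (0.11) the least.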

How the data were processed

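RNA of single cells from wild-type C57Bl/6Babr embryos was sequenced by G&T-seq. The table deposited by the authors holds raw counts per gene and cell, with no normalization. Per the study's methods reads were trimmed with Trim Galore, mapped to GRCm38 with HISAT2, filtered on mapping quality and counted in SeqMonk; the submitters' processing notes name Trim Galore 0.4.3 and HISAT2 2.0.5. The study removed poor and trophoblast cells before deposit, so that the 721 columns are the cells kept, and 0 columns were left unused. Doublets were taken from the well labels: levels used single and double wells, detection and co-detection single wells and, at E5.5, the wells labelled VE. Detection by plate at E3.5 and in the AVE-high and AVE-low wells counted double wells too.

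Cells were clustered after the SC3 scheme in Python 3.11.15 with scikit-learn 1.9.0, numpy 2.4.6, scipy 1.17.1 and pandas 2.3.3, on genes detected in 6% to 94% of cells (10694 genes for all cells and 10297 for E6.5), over 4% to 7% of dimensions with 20 k-means starts. All cells gave 8 clusters and E6.5 cells 6, the fewest with a cluster of streak markers, a number chosen after seeing the data. The 8 factors and the 39 genes of the regulator and product lists, 47 genes in all, were held out of clustering and naming. Ward clustering on 15 principal components was the alternative. The factors, lists and tests were chosen with earlier results of these data known.

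Counts were summed per embryo and class (at least 3 wells) and tested over 17151 genes in R 4.3.3 with edgeR 4.0.16 (TMM, quasi-likelihood, one fit of all 8 classes, of which E5.5 endoderm-like and E6.5 streak-like hold 1 sum each, Benjamini-Hochberg adjustment). Called genes had an adjusted p of at most 0.05 and an absolute log2 fold change over 1, or over 2 between the E4.5 classes. DESeq2 1.42.0, other normalization, filters, well types, minimum wells, plates, embryos left out and a replicate block were alternatives. Classes of the same embryo share that embryo, which pairs them; their deviations correlated at 0.008 to 0.085 at E4.5 and 0.025 to 0.148 at E6.5. The embryo is the replicate, and the 9 unnumbered E3.5 cells may come from several. Detection was 10 CPM, thinning was to 300000 counts, intervals were exact binomial at 95% and cover counting error only. Named genes of a list were the 3 largest absolute fold changes among those called, and the 3 most alike genes were named per factor, except for genes that are not reported here. Positions came from GENCODE M 21, promoters from RefSeq, and plots from matplotlib 3.10.9. The fits were tested on simulated data.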

Additional observations from a re-analysis of the deposited data

Results flagged for a closer look

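Of 35 groups of 4 to 10 sums, 11 had a sum that stood apart from the others by Dixon's criterion. Its rate of about 1 in 20 groups holds for normally distributed values only. A group with all sums but 1 at 0 is always flagged, so the 11 cannot be set against that rate. Most of the flagged sums lay near 0 in classes where a factor was almost absent. In E5.5 epiblast-like sums these were *Gata4* in embryo 1 (4.46 CPM), *Gata6* in embryo 6 (2.21 CPM), *Sox17* in embryo 8 (5.1 CPM), *Hnf4a* in embryo 7 (0.0459 CPM) and *Foxq1* in embryo 6 (0.245 CPM). *Sox7* stood apart in E3.5 embryo 7 (0.933 CPM), and in E4.5 epiblast-like sums *Foxa2* did so in embryo 4 (1.71 CPM) and *Foxq1* in embryo 3 (35.8 CPM). Among PrE-like sums, *Foxa2* in embryo 3 was the low one (20.17 CPM).

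The endoderm-like sum of E6.5 embryo 6 on the named plates stood apart for *Sox17* (261.2 CPM) and *Hnf4a* (190.8 CPM). One of its 5 wells had 953.8 CPM of *Sox17* and 466.4 CPM of *Hnf4a*, and another, with 186.7 CPM of *Sox17*, had 4522 CPM of the globin gene *Hbb-b1* and 5069 CPM of *Hba-a1*. The part of blood RNA in these values was not tested.

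An E5.5 double well that entered no comparison because its cluster could not be named carried 7 of the 8 factors above the highest E5.5 epiblast-like sum of any of them (5.1 CPM). It had 425.3 CPM of *Gata4*, 153.7 of *Hnf4a*, 71.5 of *Foxa2*, 42.9 of *Gata6*, 32.2 of *Foxa1*, 28.6 of *Sox7* and 14.3 of *Sox17*, and *Foxq1* was at 3.57 CPM.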

How the results depend on the processing

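Values that changed sign were *Gata6* in PrE-like sums against E3.5 with at least 5 wells per sum (0.21), and, in E4.5 epiblast-like sums against E3.5, *Gata4* under Ward clustering (0.46) and *Hnf4a* without embryo 5 (−0.33, with 0.68 as the highest value when each embryo was left out). None of them was called in either setting. The number of factors called in PrE-like sums against E3.5 was 3 with single wells in place of 5. In E4.5 epiblast-like sums against E3.5 it was 1 in place of 4 with only the compared groups in the fit, where *Sox7*, *Foxa2* and *Foxq1* did not pass the filter on low counts. Between the E4.5 classes it was 6 in place of 3 with only these groups and 6 with the replicate block, 0 under Ward clustering, 0 on plate P1, 0 on plate P2, and 1 to 2 when each embryo was left out. In E6.5 endoderm-like against PrE-like sums it was 4 in place of 1 with only these groups, 2 with single wells and 2 with at least 1 well per sum. Within E6.5 it was 1 in place of 7 among embryos with no plate name. The mean number of factors per PrE-like cell was 5.55 under Ward clustering in place of 6.13. The order of onset held for 7 of 8 factors at 25% and for 5 at 75%. Apart from a construction with fewer samples, the cause of these shifts was not tested.

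Over all genes, the calls fell from 3167 to 1610 (PrE-like against E3.5) and from 3250 to 1357 (epiblast-like against E3.5) with only the compared groups, and to 2111 and 2035 with at least 5 wells per sum. Between the E4.5 classes the 762 calls (4.44% of genes) became 58 on P1, 0.824% of genes on P2, 1.40% under Ward clustering, 345 to 430 with an embryo left out and 1224 in DESeq2. The 1963 calls of E6.5 endoderm-like against PrE-like sums became 848 with only these groups and 728 with no-plate embryos, and the 2849 within E6.5 became 282 there, 1458 on plates P1 to P3, 679 with the replicate block, 968 with only the E6.5 groups and 1765 without E6.75 cells. The share of calls that were higher moved from 71.6% to 59.2% in DESeq2 and 50.9% with only the compared groups (PrE-like against E3.5), from 68.6% to 54.3% in DESeq2 (epiblast-like against E3.5) and from 36.8% to 50.96% in DESeq2 (E6.5 endoderm-like against PrE-like). The median of all genes within E6.5 was −0.23 and −0.02 in DESeq2. The replicate block changed no calls of factors other than those given. Endoderm at E5.5 rests on 6 wells and the streak on 1 embryo.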
